A study of Homo sapiens with 21 samples.

Results

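Caveolae are flask-shaped pits of the plasma membrane, and the 6 genes described here encode their main coat and neck proteins. They are the caveolins *CAV1* and *CAV2*, the cavins *PTRF* (*CAVIN1*), *SDPR* (*CAVIN2*) and *PRKCDBP* (*CAVIN3*), and the neck ATPase *EHD2*, chosen by symbol from the 23201 genes of the deposited table, which uses the older names of the cavins. All 6 passed the filter on low values, a mean normalized value of at least 10. Total RNA came from the cell line HMLE (human mammary epithelial cells made immortal), either untreated (d0) or after 1, 4, 7, 10, 15 or 20 days with TGFβ (d1 to d20), a secreted factor that drives epithelial cells towards a mesenchymal state (EMT). Cells of all groups were seeded at one starting density and carried no other treatment in the labels. There were 3 libraries for each of the 7 timepoints, 21 in all, numbered in the labels as replicates of a timepoint, and p-values measure the spread between these libraries. Untreated cells were measured at d0 only, so days in culture and days of TGFβ cannot be told apart. These are bulk samples, in which fewer cells with a transcript and less of it per cell cannot be told apart either.

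Caveolins are hairpin proteins of the inner leaflet that assemble into oligomers, with *CAV2* depending on *CAV1* to leave the Golgi, and cavins form a second coat on the cytoplasmic face. *CAV1* and *PTRF* are both needed for caveolae to form, the other cavins adjust their shape and traffic, and *EHD2* rings the neck and holds the pit at the surface. Caveolae flatten under stretch and are one of the routes by which TGFβ receptors are internalized and degraded.

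*CAV2* and *CAV1* are neighbours on chromosome 7, 16467 bases apart in RefSeq (GRCh38.p14), and the other 4 genes lie on chromosomes 17 (*PTRF*), 2 (*SDPR*), 11 (*PRKCDBP*) and 19 (*EHD2*). RefSeq promoter sequences were matched for 4 of the 6 genes, not for *PTRF* and *PRKCDBP*, and the 250 bases before each start site are shown as a description. The windows are chr7:116524759-116525008 (plus strand) for *CAV1*, chr7:116499488-116499737 (plus strand) for *CAV2*, chr2:191847089-191847338 (minus strand) for *SDPR* and chr19:47713172-47713421 (plus strand) for *EHD2*, each written from 5′ to 3′ along its gene. Capitals mark matches, on either strand, to the GC box GGGCGG, the SMAD motif CAGAC or the TEAD motif GGAATG.
*CAV1*: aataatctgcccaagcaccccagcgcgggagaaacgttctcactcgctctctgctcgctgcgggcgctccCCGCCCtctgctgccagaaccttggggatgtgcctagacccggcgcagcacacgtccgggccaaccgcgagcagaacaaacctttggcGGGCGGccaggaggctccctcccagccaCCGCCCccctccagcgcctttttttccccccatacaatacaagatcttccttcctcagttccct
*CAV2*: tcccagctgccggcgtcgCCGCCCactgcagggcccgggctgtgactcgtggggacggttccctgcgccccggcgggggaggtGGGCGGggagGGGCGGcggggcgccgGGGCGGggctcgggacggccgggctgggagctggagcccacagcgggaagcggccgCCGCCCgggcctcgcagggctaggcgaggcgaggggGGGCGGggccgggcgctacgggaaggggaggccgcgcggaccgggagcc
*SDPR*: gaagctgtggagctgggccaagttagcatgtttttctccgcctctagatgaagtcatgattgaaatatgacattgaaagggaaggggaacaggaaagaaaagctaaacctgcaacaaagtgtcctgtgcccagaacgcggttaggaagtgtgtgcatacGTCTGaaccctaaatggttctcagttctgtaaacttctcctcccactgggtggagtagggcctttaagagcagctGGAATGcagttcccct
*EHD2*: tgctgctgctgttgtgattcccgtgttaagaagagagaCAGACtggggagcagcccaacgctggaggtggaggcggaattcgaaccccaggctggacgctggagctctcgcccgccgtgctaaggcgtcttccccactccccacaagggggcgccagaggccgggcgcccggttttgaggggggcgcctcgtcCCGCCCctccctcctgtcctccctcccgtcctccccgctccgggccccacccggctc
GC content was 48% in the *SDPR* window, against 63.6% for *CAV1*, 69.6% for *EHD2* and 83.2% for *CAV2*, and the median over 35114 RefSeq promoter windows of this length was 58%. The share of those windows with no higher GC content was 28.7% for *SDPR*, 64.4% for *CAV1*, 79.3% for *EHD2* and 99.1% for *CAV2*. Any link between these sequences and the changes under TGFβ was not tested. The GC box, which 42.6% of those windows held, occurred 6 times in the *CAV2* window, 3 times for *CAV1*, once for *EHD2* and not in the *SDPR* window. CAGAC, held by 38.0% of windows, occurred once for *SDPR* (as its complement, from -91 to -87 relative to the start) and once for *EHD2* (from -212 to -208). GGAATG, held by 11.9% of windows, occurred once, in the *SDPR* window from -16 to -11. The E-box CACCTG, the AP-1 motif TGANTCA and the TATA motif TATAAA were searched in the same way, matched in 17.5%, 6.57% and 10.7% of all windows, and were not found in these 4. None of these matches overlapped another.

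Each library held between 18847917 and 22667754 reads. For the 18 pairs of libraries of one timepoint other than d7, the root mean square of the log2 difference was 0.214 to 0.243, and at d7 the third library in the table stood 0.457 and 0.472 from the other 2, which differed by 0.223. The members' differences from d0 at d7 are therefore given with and without that library, as are some other d7 values. Basal epithelial markers (*KRT5*, *KRT14*, *KRT17*, *TP63*, *EPCAM* and *CDH1*) were all above the filter, with summed values of 337073 to 361467 at d0. Their sum was lower at d10 (189053 to 192878) and higher at d15 (483546 to 500519), and single genes went both ways. *EPCAM* was lower than d0 on all 6 days and *CDH1* had a log2 difference of -1.33 at d20. *KRT17* was at -1.56 at d10 and 2.25 at d15. Of the mesenchymal markers, *VIM*, *FN1* and *CDH2* were higher than at d0 on all 6 days. *ZEB1*, at 5.71 on average at d0, was above the filter only through the treated libraries. Of cell types rich in caveolae, *CDH5* of endothelium, *LEP* of adipocytes, and *MYOD1*, *MYOG*, *DES* and *CAV3* of skeletal muscle were at 3 reads or fewer in every library, as were 4 of 4 blood markers. The summed endothelial list ran from 29.2 to 291 and the adipocyte list from 65.9 to 613, both with their highest libraries at d7 and d15. The d7 libraries lay far apart, from 80.0 to 250 for the endothelial and from 149 to 613 for the adipocyte sum. Most of the endothelial sum on those days was *KDR* (means of 157, with libraries from 43.7 to 229, and 263). On other days *KDR* was lower than d0, with log2 differences of -2.78 at d1, -3.46 at d10 and -1.63 at d20, and it did not pass at d4. *PECAM1* was lower than d0 on all 6 days, while *TEK* was higher on all days but d15. *TEK* was 1.43 on average at d0 and 20.7 at d20, and was above the filter only through the treated libraries. The adipocyte sum was mostly *PLIN4* (255, with libraries from 81.9 to 342, and 420.4) and *FABP4* (181, with libraries from 59.6 to 254, and 58.8). *FABP4* was higher than d0 on all 6 days. *PLIN4* was higher at d7 and d15 but lower at d1 (-1.89) and d10 (-2.19), and did not pass at d4 or d20. *VWF*, *ADIPOQ* and *PLIN1* were under the filter and, like *CDH5* and *LEP*, were not tested. The part of these marker genes in the results was not tested.

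The transcripts of the caveolae coat did not move as one. Under TGFβ, *PTRF*, *PRKCDBP* and *EHD2* were higher than in untreated cells on all 6 days, *CAV2* on 5 days and *CAV1* on 4 days, whereas *SDPR* was lower on all 6 days, to between 4.80% and 11.8% of its untreated level, the highest being d7, which was 15.3% without the third library. These counts depended in part on how libraries were scaled, since another scaling turned *CAV2* at d20, ended the calls of *CAV1* at d7 and d20, *PTRF* at d4 and *PRKCDBP* at d15, and brought falls of *CAV1* at d4 and *CAV2* at d15. Of all genes tested, 14.3% were higher and 8.26% lower on all 6 days. Tests were made on log2(value + 1) by limma over all 13343 genes above the filter, with Benjamini-Hochberg adjusted p-values, and differences are given as log2 ± SE. Of the 6 members, 5 rose and 1 fell at d1, against 31.3% and 28.5% of all genes tested, and 4 rose and 1 fell at d4, against 36.9% and 35.3%. On d7 as on d10, 5 rose and 1 fell, against 34.6% and 32.6% for the former and 37.0% and 30.7% for the latter. At d15 3 rose and 2 fell, against 39.2% and 37.3%, and at d20 5 rose and 1 fell, against 32.5% and 30.2%. All 6 changed over the time course in a moderated F test, as did 95.9% of all genes. The median difference of the members was lowest at d15, with 0.18, then 0.31 at d4, 0.43 at d7 (0.38 without the third library), 0.44 at d20 and 0.52 on both d1 and d10, against medians of all genes within 0.03 of 0. Rescaling every library to the same total moved the median of all genes to between -0.14 and -0.20, and the size of the members' differences depended on this choice.

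**Figure D1:**
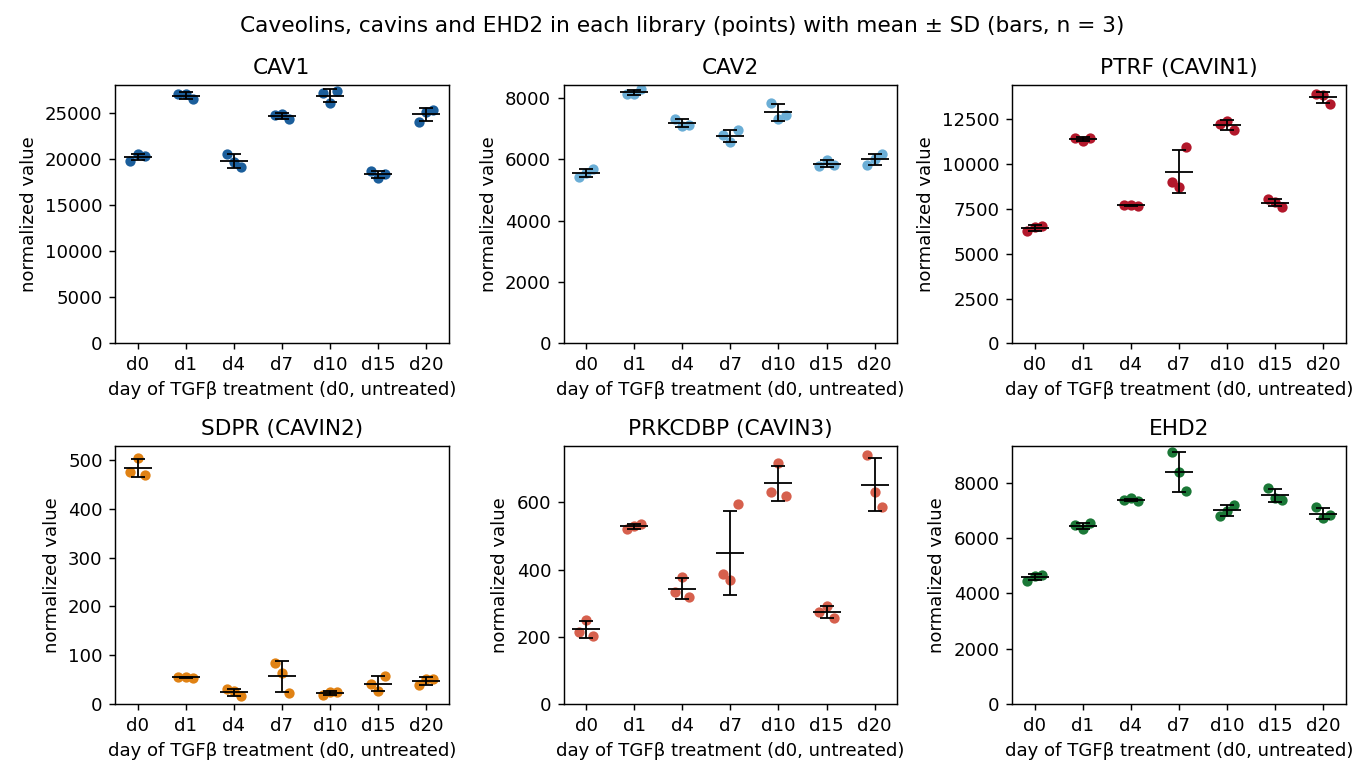
Normalized value (linear axis from 0) of each member in every library, by day of TGFβ treatment, as points, with the mean ± SD of 3 libraries as bars; days are evenly spaced. *SDPR* falls from a mean of 483 to at most 84.4 in any treated library, while *CAV1* dips at d4 and d15 and *EHD2* stays above d0 throughout.

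*CAV1*, the principal caveolin, moved up and down by day. It was 19814, 20492 and 20276 in the untreated libraries. The values were 27063, 27026 and 26427 at d1, 24795, 24832 and 24305 at d7, 27136, 26008 and 27305 at d10, and 24024, 25112 and 25314 at d20, so every library of those days lay above every untreated library. At d4 they were 20526, 19647 and 19068, on both sides of the untreated range, and at d15 they were 18639, 17908 and 18362, all below d0. Of the 18 treated libraries, 13 lay above every untreated library and the other 5 below every one. The difference from d0 was 0.41 ± 0.04 at d1 (adjusted p = 1.93e-09), 0.29 ± 0.04 at d7 (adjusted p = 3.49e-07, and 0.30 without the third library), 0.41 ± 0.04 at d10 (adjusted p = 1.45e-09) and 0.30 ± 0.04 at d20 (adjusted p = 2.33e-07). At d15 it was -0.14 ± 0.04 (adjusted p = 0.00104), and at d4 it was -0.03 ± 0.04 (adjusted p = 0.412).

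The size and in places the call of the *CAV1* differences depended on library scaling. With libraries rescaled to the same total, *CAV1* differed from d0 by 0.22 at d1, 0.10 at d7, 0.18 at d10 and 0.10 at d20, all still past the threshold, and fell by 0.23 at d4 and by 0.30 at d15. Under quantile normalization they were smaller still, 0.13 on both d1 and d10 and 0.05, not past the threshold, on both d7 and d20, while *CAV1* fell by 0.23 at d4 (adjusted p = 6.47e-06) and by 0.42 at d15. *CAV1* was lower at d15 than at d1, d7, d10 and d20 by 0.43 to 0.55, and it rose again by 0.44 ± 0.04 from d15 to d20 (adjusted p = 3.93e-10). Neighbours in the order from d15 (lowest) through d4, d0, d7, d20 and d10 to d1 did not differ beyond their spread for d4 and d0 (adjusted p = 0.412), d7 and d20 (adjusted p = 0.823) or d10 and d1 (adjusted p = 0.980).

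The level of 10 proliferation genes also varied by day. All 10 (*MKI67*, *TOP2A*, *CCNB1*, *CDK1*, *BIRC5*, *AURKA*, *AURKB*, *PLK1*, *BUB1* and *CCNA2*) were lower than at d0 at d4, d7 and d15, with medians of -0.65, -0.43 (-0.60 without the third library) and -1.58. At d1 8 were lower (median -0.29). At d10 3 were lower and 1 was higher, and at d20 1 was lower and 2 were higher. Of all genes tested, 28.5% to 37.3% were lower and 31.3% to 39.2% higher on the treated days. Over the 21 libraries, which share day and scaling, the Pearson r of *CAV1* with their mean log2 value was 0.63, against 0.46 for *PRKCDBP*, 0.42 for *PTRF*, 0.28 for *SDPR*, 0.15 for *CAV2* and -0.47 for *EHD2*. The part of proliferation in these differences was not tested.

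*CAV2*, the partner of *CAV1* in hetero-oligomers, peaked on the first day and came back most of the way. It was 5431, 5546 and 5699 at d0 and 8119, 8142 and 8283 at d1. The later values were 7318, 7101 and 7116 at d4, 6778, 6574 and 6962 at d7, and 7848, 7309 and 7451 at d10. They were 5777, 5983 and 5809 at d15 and 5818, 6023 and 6160 at d20. All 18 treated libraries lay above every untreated one, with d15 closest, whose lowest library was 5777 against 5699 for the highest at d0. This pattern was found for 14.6% of all genes tested and, among the members, also for *PTRF*, *PRKCDBP* and *EHD2*. The difference from d0 was 0.56 ± 0.03 at d1 (adjusted p = 8.26e-12), 0.44 at d10, 0.37 at d4 and 0.28 at d7, or 0.26 without the third d7 library. Rescaled to the same total these were 0.36 at d1, 0.21 at d10, 0.17 at d4 and 0.09 at d7, all past the threshold, and under quantile normalization the d10 value was 0.22. It was 0.08 at d15 (adjusted p = 0.0526) and 0.11 at d20 (adjusted p = 0.00853). With libraries rescaled to the same total the last pair turned to falls past the threshold, of -0.08 at d15 (adjusted p = 0.0313) and -0.09 at d20 (adjusted p = 0.0245), and under quantile normalization the d20 value was -0.03. The direction at d15 and d20 thus depended on the scaling. The d15 difference passed as a rise by DESeq2 (0.08, adjusted p = 0.0308) and in a fit of d15 and d0 alone (adjusted p = 0.0265). It also passed, at 0.08 to 0.09, when any 1 of 5 libraries was left out, the third of d0, the second or the third of d7, the first of d10 or the first of d20 (adjusted p from 0.0184 to 0.0499).

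Within the caveolins, the make-up shifted by a few percentage points. Per kilobase of the longest annotated transcript, *CAV1* was 78.9% ± 0.32 (SD, n = 3) of the sum of both at d0, 73.9% ± 0.45 at d4 and 81.0% ± 0.11 at d20. The libraries of d4 (73.4% to 74.3%) and d20 (80.9% to 81.1%) did not overlap those of d0 (78.6% to 79.2%).

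*PTRF*, the cavin without which caveolae do not form, had the largest rise of the abundant members. It was 6248, 6502 and 6542 at d0 and 11429, 11248 and 11448 at d1. It then fell to 7714, 7705 and 7641 at d4, was 9002, 8737 and 10954 at d7, and reached 12243, 12400 and 11869 at d10. It fell again to 8038, 7879 and 7622 at d15 and was 13904, 13853 and 13351 at d20. Every treated library lay above every untreated one, and the 3 libraries of d20 lay above all others. The difference from d0 was 0.82 ± 0.05 at d1 (adjusted p = 2.69e-11), 0.26 at d4, 0.92 at d10 and 0.29 at d15, and it was 1.09 ± 0.05, or 2.13-fold, at d20 (adjusted p = 1.58e-13). At d7 it was 0.57 ± 0.05 with all 3 libraries and 0.46 ± 0.03 without the third, past the threshold both ways. Rescaled to the same total, the differences were 0.06 at d4, which did not pass, 0.13 at d15 (adjusted p = 0.0458) and 0.37 at d7, and under quantile normalization the d4 value was 0.13.

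*PRKCDBP*, a cavin first found as a binding protein of protein kinase C delta, followed the same days as *PTRF* at a lower level. It was 215, 249 and 202 at d0, 522, 529 and 537 at d1, and 333, 378 and 318 at d4. It was 632, 716 and 619.95 at d10. The libraries held 273, 291 and 255 at d15, and 741, 629 and 587 at d20. All treated libraries lay above all untreated ones, with a gap at d15 of 255 against 249. The difference was 1.25 ± 0.13 at d1 (adjusted p = 3.96e-08), 1.56 ± 0.13 at d10 (adjusted p = 9.01e-10) and 1.55 ± 0.13 at d20 (adjusted p = 1.15e-09). At d7 the libraries were 386, 369 and 594, and the difference was 0.99 ± 0.13 with the third and 0.77 ± 0.09 without it. The d15 difference of 0.30 ± 0.13 (adjusted p = 0.0420) was near the threshold. It no longer passed by edgeR (0.27, adjusted p = 0.101) or DESeq2 (adjusted p = 0.0529) on the recovered reads, without the filter (adjusted p = 0.0584) or with libraries rescaled to the same total (0.14), nor when the first or the third library of d0, or the first or second of d15, was left out (0.23 to 0.30, adjusted p from 0.0797 to 0.156).

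*SDPR*, the cavin that binds phosphatidylserine and deforms membranes, went the other way. It was 475, 505 and 470 in the untreated libraries and 56.5, 55.4 and 53.6 after a single day of TGFβ. It was 30.5, 27.3 and 16.65 at d4, 18.9, 25.3 and 25.4 at d10, 41.8, 27.1 and 57.0 at d15, and 39.2, 51.6 and 51.9 at d20. At d7 the libraries were 84.4, 63.6 and 23.3, the third being the one that stood apart. All 18 treated libraries lay below all 3 untreated ones, a pattern found for 9.98% of the genes tested. The reads behind the treated values were 17 to 80 per library, so counting error is a larger part of them than for the other members.

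The fall of *SDPR* was among the largest in the table. Its difference from d0 was -3.11 ± 0.33 at d1 (adjusted p = 4.50e-08), -4.27 ± 0.33 at d4 (adjusted p = 1.62e-10), -4.33 ± 0.33 at d10 (adjusted p = 1.58e-10), -3.56 ± 0.33 at d15 (adjusted p = 2.19e-09) and -3.33 ± 0.33 at d20 (adjusted p = 1.26e-08). At d7 it was -3.24 ± 0.33 with all libraries and -2.70 ± 0.22 without the third. Ranked from the lowest difference of 13343 genes, *SDPR* stood at place 29 on the first treated day, then at 7, 15, 34, 34 and 49 on the following ones. Over 28 alternative settings the difference stayed between -4.56 and -2.70 on every day. Among the treated days the order of the *SDPR* means could not be resolved step by step, since no pair of neighbours between d10 (lowest) and d7 differed beyond its spread (adjusted p from 0.0651 to 0.872). Between d10 and d20, days that are not neighbours in that order, the difference was 1.01 ± 0.33 (adjusted p = 0.0156). RefSeq places an antisense gene, *CAVIN2-AS1*, over 601 bases of *SDPR*, and the spans of lncRNA genes overlap those of *PTRF*, *PRKCDBP* and *EHD2* by 70, 1361 and 588 bases. Whether reads were counted by strand was not given in the sources used here, so reads of the overlapping parts cannot be told apart.

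**Figure D2:**
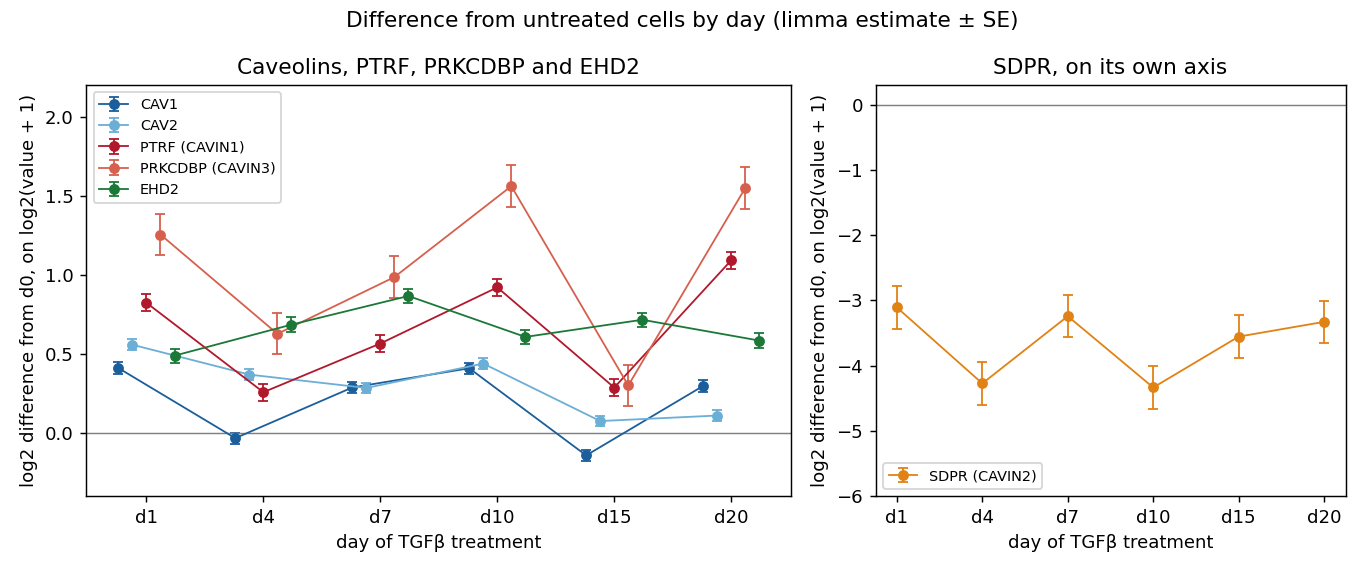
Limma difference from d0 on log2(value + 1) with its SE, by day, for the 5 members without *SDPR* (left) and for *SDPR* on its own axis (right); lines join evenly spaced days. *PTRF*, *PRKCDBP* and *CAV1* are high at d1, d10 and d20 and low at d4 and d15, *EHD2* is highest at d7, and *SDPR* lies between -4.33 and -3.11.

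The make-up of the cavin transcripts differed between untreated and treated cells. Per kilobase, *SDPR* was 7.41% ± 0.20 of the 3 cavins at d0 and 0.192% to 0.644% on average on the treated days, the highest at d7, where it was 0.859% without the third library. *PRKCDBP* was 9.37% ± 0.90 at d0, 13.1% ± 0.19 at d1, 14.9% ± 0.79 at d10 and 10.1% ± 0.51 at d15. *PTRF* was 83.2% ± 1.09 at d0 and 89.3% ± 0.33 at d15. The highest *SDPR* share in any treated library was 0.966%, at d7, and the lowest untreated one was 7.18%.

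**Figure D3:**
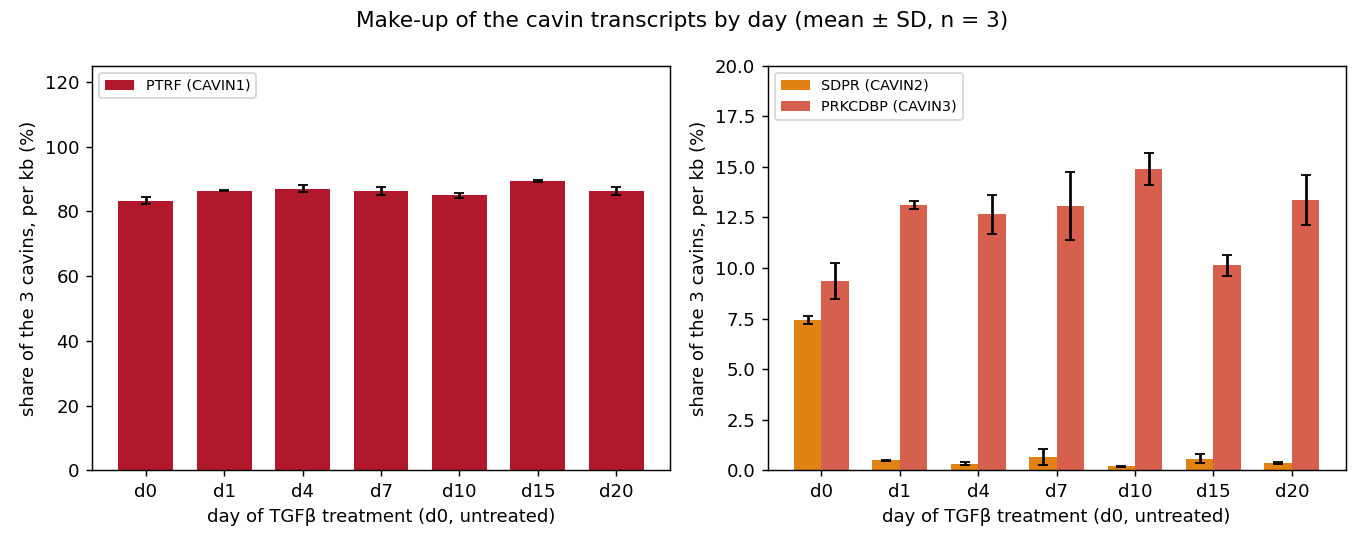
Share of each cavin in the sum of the 3 (percent, per kilobase of the longest annotated transcript), mean ± SD of 3 libraries a day, with *PTRF* on the left and *SDPR* and *PRKCDBP* on the right, both axes from 0. The *SDPR* bar falls from 7.41% at d0 to under 1% on each treated day.

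*EHD2*, the ATPase at the caveolar neck, was raised throughout and did not follow the dips of *CAV1*. It was 4466, 4627 and 4681 at d0, 6458, 6331 and 6536 at d1, and 7377, 7428 and 7332 at d4. The d7 libraries were 9102, 8369 and 7687, with 6804, 6987 and 7191 at d10. The values were 7820, 7435 and 7368 at d15 and 7119, 6716 and 6815 at d20. The lowest treated library, 6331, was well above the highest untreated one, 4681. The difference was 0.49 ± 0.05 at d1 (adjusted p = 6.54e-09), 0.68 at d4, 0.61 at d10, 0.72 ± 0.05 at d15 (adjusted p = 4.68e-12) and 0.58 at d20. It was 0.87 ± 0.05 at d7, and 0.93 ± 0.03 without the third library. Over 28 alternative settings it stayed between 0.30 and 0.93 on all days, and rescaling to the same total gave 0.30 at d1 and 0.38 on both d10 and d20.

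Per kilobase at d0, *CAV1* was the most abundant member at 6309 ± 108, followed by *CAV2* at 1684 ± 40.7 and *PTRF* at 1680 ± 41.6, which lay within their spread of each other. *EHD2* was at 1281 ± 31.2, *PRKCDBP* at 189 ± 20.9 and *SDPR* at 150 ± 5.79 (SD, n = 3 each).

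Between consecutive timepoints, the differences of *CAV1*, *PTRF* and *PRKCDBP* had the same sign in each of the 5 steps from d1 on. From d1 to d4 1 member rose (*EHD2*, by 0.20) and 5 fell, against 32.9% and 32.0% of all genes tested, with *CAV1* down by 0.44, *PTRF* by 0.57, *PRKCDBP* by 0.63, *CAV2* by 0.19 and *SDPR* by 1.16. From d4 to d7 5 rose and 1 fell (*CAV2*, by 0.08), against 25.5% and 25.5%. Of these, *CAV1* (0.32), *PTRF* (0.31) and *EHD2* (0.18) rose whichever library was left out. The *CAV2* call was lost on leaving out any 1 of 14 libraries (adjusted p from 0.0508 to 0.176), all 3 of d1, d4 and d15 among them with the second of d0, the first and second of d7, the third of d10 and the second of d20. The *PRKCDBP* rise of 0.36 was 0.14 without the third library of d7 (adjusted p = 0.169) and was also lost without the first or the third of d4, and the *SDPR* rise of 1.03 was 1.57 without that library and was lost without the third of d4 or the first or second of d7 (0.66 to 0.86, adjusted p from 0.0561 to 0.0953).

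From d7 to d10 4 members rose and 2 fell, against 36.2% and 35.2%. *PTRF* rose by 0.35, *PRKCDBP* by 0.58, *CAV2* by 0.15 and *CAV1* by 0.12, *EHD2* fell by 0.26 (0.40 under quantile normalization), and *SDPR* fell by 1.09, which was 0.72 and not past the threshold without the first library of d7 (adjusted p = 0.0512). Under quantile normalization the *CAV2* rise was 0.0018 and did not pass (adjusted p = 0.963), and neither did the *SDPR* fall (adjusted p = 0.0646). From d10 to d15 2 rose and 4 fell, against 39.3% and 40.5%. The falls were 0.55 for *CAV1*, 0.36 for *CAV2*, 0.63 for *PTRF* and 1.26 for *PRKCDBP*, each past the threshold with any library left out. The rises were 0.78 for *SDPR*, lost without the first library of d10 or the first or the third of d15 (adjusted p from 0.0747 to 0.176), and 0.11 for *EHD2*, lost without the first or second of d10 or the first of d15 (adjusted p from 0.0665 to 0.144). Under quantile normalization the *CAV2* fall was 0.18, the *EHD2* rise was 0.29 and *SDPR* did not pass (adjusted p = 0.331). From d15 to d20 3 rose, *CAV1* by 0.44, *PTRF* by 0.80 and *PRKCDBP* by 1.25, and *EHD2* fell by 0.13, against 37.7% and 36.3%, and the *EHD2* fall was lost without the first library of d15 or the second of d20 (adjusted p of 0.0689 and 0.0545), though it was 0.26 under quantile normalization. *CAV2* and *SDPR* did not pass in that step (adjusted p = 0.367 and 0.540).

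Ratios within a library do not depend on a factor that scales the whole library, though quantile normalization does change them. The log2 ratio of *CAV1* to *PTRF* was 1.65 ± 0.02 in the untreated libraries and 1.20 ± 0.19 over the 18 treated ones, with no overlap between 1.63 and 1.51. The treated mean was lower by 0.45 for *PTRF*, by 0.84 for *PRKCDBP* and by 0.45 for *EHD2*, and it was higher by 3.85 for *SDPR*. The two-sided exact permutation p was 0.0015 for each of these 4, the smallest that 18 libraries against 3 allow, and 0.00188 after Benjamini-Hochberg adjustment over the 5 ratios. The test treats the libraries of all days as interchangeable and takes no account of their grouping by day. Its p therefore does not measure the spread between days, and cannot tell an effect of treatment from differences between days. In each of these 4 ratios all 18 treated libraries lay on one side of all untreated ones. How common this is among ratios of other genes to *CAV1* was not computed. For *CAV2* the ratio was 1.86 ± 0.03 in untreated and 1.76 ± 0.19 in treated libraries (two-sided exact permutation p = 0.405), and it ran from 0.40 lower at d4 to 0.19 higher at d20. Under quantile normalization the treated mean was lower by 0.56 for *PTRF*, 1.08 for *PRKCDBP*, 0.58 for *EHD2* and 0.23 for *CAV2*, and higher by 3.62 for *SDPR*. The *CAV2* ratio against d0 went from 0.00 to -0.17 at d7 and from -0.22 to -0.45 at d15. By single day, 3 libraries against 3 allow no p under 0.1, and 0.1 was reached by *PTRF*, *SDPR*, *PRKCDBP* and *EHD2* on all 6 days. The *CAV2* ratio also reached 0.1 at d1 (-0.15), d4 (-0.40), d15 (-0.22) and d20 (0.19). These days went in opposite directions, so its p over all treated libraries does not show an unchanged ratio. The *CAV1* to *EHD2* ratio had its largest drops at d15 (0.86) and d4 (0.72) and differed by -0.08 at d1, which was -0.19 under quantile normalization. Without the third library of d7, the d7 ratio was lower than d0 by 0.17 for *PTRF* (0.28 with it) and by 0.47 for *PRKCDBP* (0.70 with it), and higher by 3.00 for *SDPR* (3.53 with it).

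**Figure D4:**
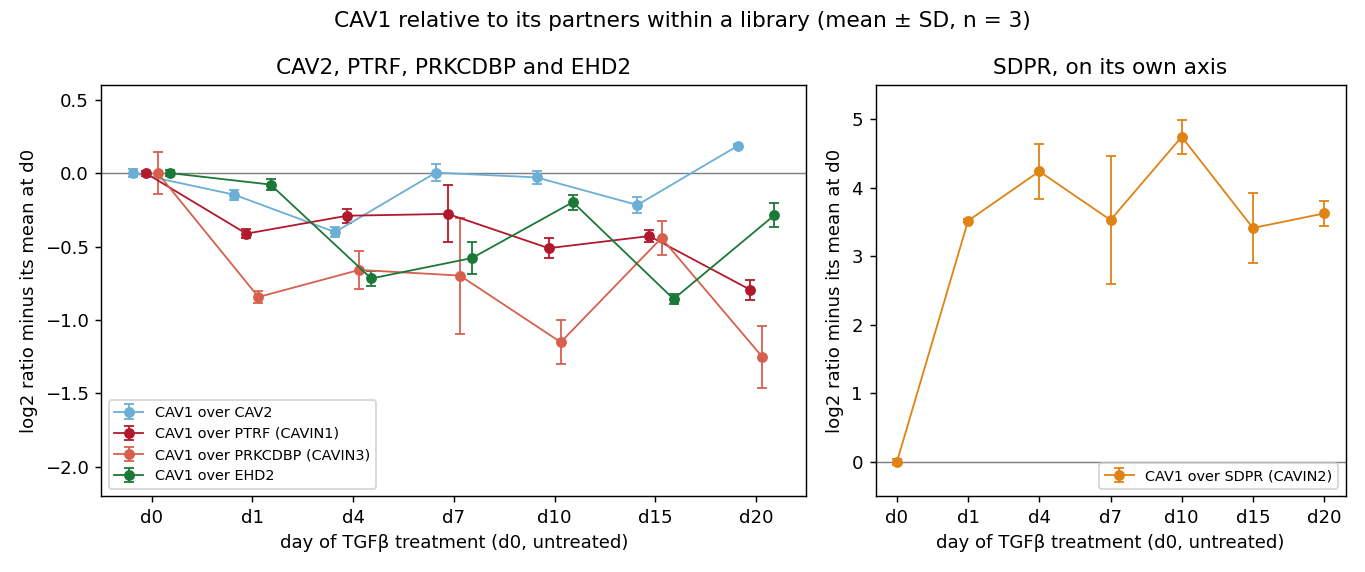
Log2 ratio of *CAV1* to each partner within a library, as the mean of 3 libraries minus the mean at d0, with the SD of the 3 libraries, by evenly spaced day; *SDPR* is on its own axis. The ratio to *PTRF* and *PRKCDBP* is lowest at d20, the ratio to *EHD2* at d15 and d4, and the ratio to *SDPR* is 3.41 to 4.74 above d0.

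As a description over the 21 libraries, which share days and scaling, *PTRF* and *PRKCDBP* were the closest pair (Pearson r = 0.96), and *CAV1* had r = 0.82 with *PTRF*, 0.83 with *PRKCDBP*, 0.62 with *CAV2* and 0.14 with *EHD2*. *SDPR* and *EHD2* had r = -0.78. Without the third library of d7 these 6 values were 0.97, 0.81, 0.83, 0.62, 0.13 and -0.77. Among 3897 genes outside the members with a mean of at least 50 and a span of timepoint means of at least 1 log2 unit, the genes most like *CAV1* in pattern were *ARHGEF3* (r = 0.93), *TUBB6* (0.93) and *SFN* (0.92). They were *GJB5*, *ARSI* and *LIPG* for *CAV2* (0.94 to 0.95), *LOC375295*, *GLIPR1* and *CANT1* for *PTRF* (0.95 to 0.97), and *DUSP23*, *C7orf74* and *LOC375295* for *PRKCDBP* (0.96), so *PTRF* and *PRKCDBP* shared 1 of 3. For *SDPR* they were *SMARCD2*, *CAMK2B* and *ACADSB* (0.93 to 0.95) and for *EHD2* *TLL1*, *ODZ4* and *GALNT2* (0.97 to 0.98).

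Accessory genes of caveolae, 12 in the list, were for the most part higher under TGFβ. *CAV3*, the muscle caveolin, had no read in any library, and *PACSIN1* was under the filter, with a mean of 18.2 at d0 and at most 3.39 on a treated day. Of the 10 tested, 8 rose on every day but d15, when 7 rose, and 1 fell at d1, d4, d7 and d10, 2 at d15 and none at d20. Of all genes tested, 31.3% to 39.2% were higher and 28.5% to 37.3% lower on the 6 days. *MURC* is counted among those that rose but had passed the filter only through the treated libraries. Their median difference was highest at d10 (0.97), d20 (0.91) and d1 (0.80) and was 0.50 to 0.55 on the other days, with 0.39 at d7 without the third library. Counts of lower gene-days in this list rose to 11 with libraries rescaled to the same total, against 6.

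The other EHD ATPases, which act mainly in endocytic recycling, were not all raised on every day as *EHD2* was. *EHD1* went from 1064 ± 92.6 (SD, n = 3) without treatment to 2758 ± 53.3 at d1 and 3238 ± 94.1 at d10 and was 1090 ± 23.2 at d15, where its difference of 0.04 ± 0.09 did not pass (adjusted p = 0.709). *EHD4* was 2071 ± 64.3 at d0 and 4138 ± 141 at d10 and was lower than d0 at d15, by 0.25 ± 0.10 (adjusted p = 0.0233). At d7, with libraries from 1931 to 2976, its difference of 0.12 ± 0.10 did not pass (adjusted p = 0.262). *EHD3* rose on all 6 days, from 151 to 175 at d0 to 492 ± 23.5 at d20 (1.59 ± 0.10, adjusted p = 3.93e-12).

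*ROR1*, a receptor-like kinase known to scaffold *CAV1* and *PTRF*, was low at d0, at 18.5 ± 2.19, and rose on all 6 days, to 129 ± 7.11 at d20 (2.74 ± 0.17, adjusted p = 1.03e-11). *MURC*, the muscle cavin *CAVIN4*, was at 6.60 ± 0.90 at d0 and between 15.5 and 25.5 on average later. Since its untreated mean lay under the filter of 10, a higher level under treatment was in part a condition of its being tested, and its values are a description. *PACSIN2*, which bends membrane at the caveolar neck, fell on 5 days, by 0.42 ± 0.05 at d4 (adjusted p = 4.78e-08) and 0.41 ± 0.05 at d15, and its difference at d20 was -0.10 (adjusted p = 0.0512). *PACSIN3* rose at d7 and d15 among the 6 days tested (0.34 ± 0.05 at d15, adjusted p = 1.38e-06), but with libraries rescaled to the same total its d7 difference turned from 0.14 to -0.05 and it fell at d1, d4, d10 and d20. The rest of the tested list, *DNM2*, *FLNA* and *SRC*, named to complete the count, rose on all 6 days. After the same rescaling *DNM2* did not pass on d7, d10, d15 or d20 (0.03 to 0.06), and *EHD3* did not on d4 or d7. The *EHD4* rise at d4 was also lost (0.15, adjusted p = 0.188), and *PACSIN2* fell on d20 as well, by 0.30.

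**Figure D5:**
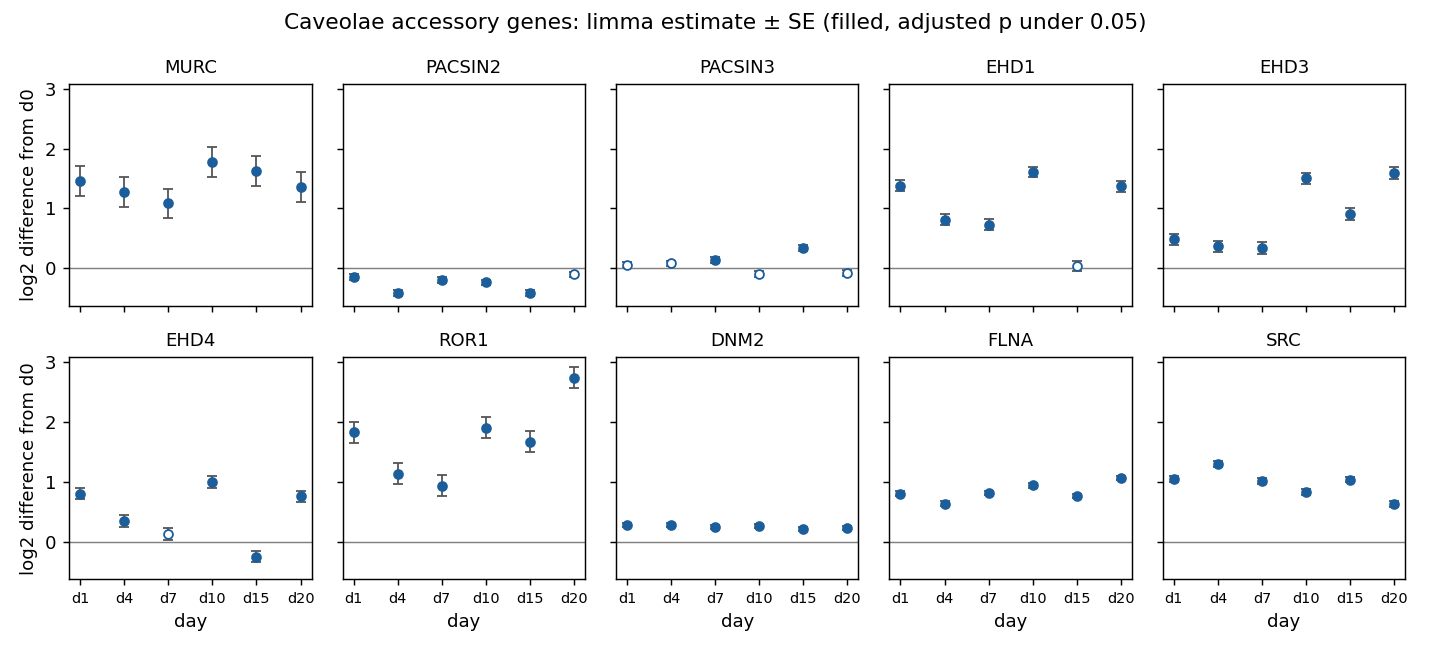
Limma difference from d0 on log2(value + 1) with its SE, by day of TGFβ treatment, for the 10 accessory genes tested; filled points passed an adjusted p of 0.05 and open points did not. *ROR1* reaches 2.74 at d20, *PACSIN2* lies below 0 on all days, and *EHD1* and *EHD4* are near or below 0 at d15.

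Genes of other uptake routes give the setting. Of the flotillins, scaffold proteins of a separate kind of membrane domain, *FLOT1* rose on all 6 days (0.84 ± 0.06 at d15, adjusted p = 6.64e-11, with the d1 call lost on rescaling) and *FLOT2* fell on all 6 (by 0.68 ± 0.04 at d10, adjusted p = 1.25e-11). Of 15 genes of clathrin endocytosis, 12, 10, 10, 13, 11 and 11 rose and 0, 2, 0, 1, 3 and 0 fell on d1, d4, d7, d10, d15 and d20. The shares of all genes were 31.3%, 36.9%, 34.6%, 37.0%, 39.2% and 32.5% higher and 28.5%, 35.3%, 32.6%, 30.7%, 37.3% and 30.2% lower, and without the third library of d7 2 clathrin genes were lower on that day. The clathrin adaptor *DAB2* went from 87.1 ± 14.9 at d0 to 454 ± 34.9 at d20 (2.38 ± 0.10, adjusted p = 9.43e-15), the light chain *CLTB* was highest at d1 (0.91 ± 0.05) and the adaptor subunit *AP2A1* at d15 (0.69 ± 0.04). These counts depended on scaling: over the 6 days, 67 higher gene-days became 40 and 6 lower ones became 23 with libraries rescaled to the same total.

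Of 8 genes of TGFβ receptor turnover, 5 or 6 rose and 1 or 2 fell on each day, against 31.3% to 39.2% and 28.5% to 37.3% of all genes tested. Lower gene-days went from 7 to 14 with libraries rescaled to the same total. *SMAD7*, which brings ubiquitin ligases to the receptors, went from 108 ± 9.23 at d0 to 928 ± 22.3 at d4 (3.10 ± 0.07, adjusted p = 7.28e-20). *SMURF2*, one of those ligases, was highest at d10 (1.56 ± 0.07, adjusted p = 1.05e-14). *TGFBR3*, the co-receptor betaglycan, fell from 67.7 ± 9.81 at d0 to 20.4 ± 3.67 at d1 (by 1.69 ± 0.25, adjusted p = 4.89e-06) and was lower on every treated day but d15, when it was 65.4 ± 3.53 (adjusted p = 0.885).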

How the data were processed

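RNA of HMLE cells, extracted with Trizol, was sequenced by the authors at 7 timepoints with 3 libraries each. The deposited table, made by the authors, gives for a gene in a library its normalized signal, that is its reads divided by a factor of that library. The submitters' processing notes name STAR 2.7, Salmon 1.4 and the build hg19, with no role or order given. Every value (100%) came out as whole reads, within 0.05 of a read, with 18847917 to 22667754 reads per library. Column names give the timepoint but no replicate number. No batch is given in the labels.

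The 13343 genes with a mean of at least 10 entered limma 3.58.1 (R 4.3.3) as log2(value + 1) (eBayes with a trend, one mean per timepoint, all 21 libraries), at a Benjamini-Hochberg adjusted p of 0.05 over all genes of a contrast. Ratios were compared by two-sided exact permutation tests (scipy 1.17.1). A gene at 3 reads or fewer was treated as at the floor, which covers counting error only. Other settings tried were quantile normalization, rescaling to the same total, a pseudocount of 10, no filter, a fit of only the 2 groups compared, edgeR 4.0.16 and DESeq2 1.42.0 on the recovered reads, and each library left out in turn. On simulated data (d20 against d0, 13318 genes, 100 of them changed by each size) limma recovered 95% of the 2-fold and 81% of the 1.5-fold changes, with 8 unchanged genes called. These simulated data changed far fewer genes than were called at d20 here (32.5% higher and 30.2% lower) and had no library standing apart. Their rates therefore need not hold for the real tests. All 6 members are named. Of each other list, the 3 genes with the largest change past the threshold are named, with *CAV3*, *MURC*, *PACSIN2*, *PACSIN3*, *EHD1*, *EHD3*, *EHD4* and *ROR1* always. The members and lists were chosen with earlier results of these data known. Lengths came from the longest GENCODE v29 transcript, positions and promoters from RefSeq on GRCh38.p14, which is not the build named for the files. Python 3.11.15 with matplotlib 3.10.9 drew the figures.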

Additional observations from a re-analysis of the deposited data

Results flagged for a closer look

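*CAV1* stood at opposite sides of its untreated level on different days of the same treatment. It was below d0 at d15 and above d0 at d1, d7, d10 and d20, and each of these 4 days was tested against d15 directly by limma over all 13343 genes. *CAV1* was higher than at d15 by 0.55 ± 0.04 at d1 (adjusted p = 7.64e-12), by 0.43 ± 0.04 at d7 (adjusted p = 1.64e-09), by 0.55 ± 0.04 at d10 (adjusted p = 5.66e-12) and by 0.44 ± 0.04 at d20 (adjusted p = 3.93e-10). Of all genes tested, 28.7% were higher than d0 on one day and lower on another. The cause was not tested.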

How the results depend on the processing

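Of 2503 recomputed values over 102 results, 2404 kept their direction and side of the threshold (counts, within 1.5 times), 47 lost the threshold, 9 came to pass it, 37 counts moved and 6 reversed. Part of this agreement was fixed in advance. A difference between 2 timepoints keeps its estimate when the library left out is of neither, without the filter, or in a fit of those 2 alone. In such settings only its adjusted p can change. The reversed values were *CAV2* at d15 (-0.084, with equal library totals, called rescaled here), *CAV2* at d20 against d0 (-0.090 rescaled, -0.032 quantile), *CAV2* from d15 to d20 (-0.0059 rescaled, -0.068 quantile) and *SDPR* from d15 to d20 (-0.048 without the second library of d15, the lowest of a range up to 0.47 with 1 library left out), none past the threshold in the main analysis but *CAV2* at d20. Rescaling gave 2 members lower at d4 and 2 at d20, 0 lower from d4 to d7, 11 lower gene-days for the accessory list against 6, 40 higher and 23 lower for the clathrin list against 67 and 6, and 14 lower for the receptor turnover list against 7. Quantile normalization gave 2 members lower at d4, 3 higher at d20, 0 lower from d4 to d7, 1 lower from d7 to d10, 1 higher from d10 to d15 and 14 lower gene-days for the clathrin list. Without the filter, 0 members were lower from d4 to d7 and 1 higher from d10 to d15. The cause was not tested.

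With 1 library left out, the members called ranged from 3 to 5 higher and 0 to 1 lower from d4 to d7, 1 to 2 lower from d7 to d10, 0 to 2 higher from d10 to d15 and 0 to 1 lower from d15 to d20. At d15 against d0 they ranged from 2 to 4 higher. No paired analysis was possible because the table names only the timepoint of each library, without a replicate number. Depth limits *SDPR* most, which after treatment rests on 17 to 80 reads per library.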
